A study of Mus musculus with 6 samples.

Results

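The cytosolic ribosomal protein genes were the 78 of 27634 gene symbols that begin with Rpl or Rps followed by a number and an optional a, x, l or l1, together with Rplp0, Rplp1, Rplp2 and Rpsa. They comprised 29 genes of the small subunit and 49 of the large subunit. Among them, 72 encode the usual ribosomal proteins and 6 are copies of another member (Rpl3l, Rpl7l1, Rpl10l, Rpl22l1, Rpl39l and Rps27l). The ribosomal proteins encoded by Rps3, Rps12, Rps23, Rpl13a and Rpl34 have no row under these names and were not analysed here.

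RNA sequencing had been done on 6 libraries of cells labelled as cancer-associated dendritic cells from C57BL/6 mice. All mice had borne ID8-Defb29/Vegf-a for 32 to 38 days, a transplantable ovarian tumour line of the mouse named for Defb29 and Vegf-a, and all received 100 µg of siRNA in rhodamine-conjugated polyethylenimine nanocomplexes. In the high experiment, named for its strong downregulation of Satb1, 2 libraries came from mice given non-targeting (NT) siRNA with wild-type Satb1 status and 2 from mice given Satb1 siRNA. In the low experiment, named for its weak downregulation, 1 library came from NT siRNA and 1 from Satb1 siRNA. Satb1 encodes a chromatin organiser, and the question was what its loss changes in these cells. The sources used here do not give how the cells were purified or how many mice stand behind a library.

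The cytosolic ribosome joins a small subunit, which reads the mRNA, to a large subunit, which forms peptide bonds. Each subunit holds ribosomal RNA and a fixed set of proteins, nearly all in equal number, and their mRNAs are among the most abundant in growing cells. Most of these mRNAs begin with a run of pyrimidines at the cap, the terminal oligopyrimidine (TOP) motif, through which mTOR and Larp1 control their translation and stability together.

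The annotated start sites of members on which the results turn are shown so that the TOP motif can be seen. Each window runs 5′ to 3′ on the gene's strand from RefSeq (GRCm38.p6), with 15 bases before the start in lower case and the first 15 transcribed bases in capitals. Rps6 (chr4:86857353-86857382, minus strand), Rpl35 (chr2:39005117-39005146, minus strand) and Rplp2 (chr7:141447636-141447665, plus strand) begin with C and further pyrimidines. Rps16 (chr7:28350674-28350703, plus strand), Rpl5 (chr5:107900513-107900542, plus strand) and Rpl36a (chrX:134585639-134585668, plus strand) have an annotated start at a purine, which may lie a few bases from the start used in these cells.
Rps6: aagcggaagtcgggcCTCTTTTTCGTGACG
Rpl35: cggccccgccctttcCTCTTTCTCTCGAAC
Rplp2: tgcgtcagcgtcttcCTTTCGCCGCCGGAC
Rps16: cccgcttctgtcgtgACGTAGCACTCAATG
Rpl5: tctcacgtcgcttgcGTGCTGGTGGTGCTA
Rpl36a: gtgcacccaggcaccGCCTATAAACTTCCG

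A promoter window of 250 bases before to 50 after the start was matched for 57 of the 78 members. The letters CCGGAAG, a core that ETS factors can bind, stood on either strand in 24 of these 57 (42.1%). Over all 27025 genes with such windows the share was 9.9%. A gene with several windows counted once, if any of them held the letters. The letters AAGATGGC, a core of the YY1 motif, stood in 5 (8.8%), against 3.2%. The letters CTTTCC, a pyrimidine stretch, stood in 32 (56.1%), against 29.3%. A match is a description of letters and not a measured site.

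Library totals ran from 24553454 to 71272720 counts, and a count of 0 allowed up to 0.0421 to 0.122 CPM (counts scaled to a common library size). The repeats of the high experiment differed by little more than counting noise (chi-square per member 1.603 for NT and 1.925 for Satb1 siRNA, against 150 between the siRNAs and 157 in the low experiment). They were therefore counted as 1 sample per group, and p-values below compare libraries and not mice. Satb1 had 1233 and 1193 counts with NT siRNA and 184 and 200 with Satb1 siRNA in the high experiment, and 170 against 165 in the low experiment. In the low pair its level went from 8.89 to 7.42 CPM after TMM scaling (the trimmed mean of M-values, which sets most genes to no change), but the authors' FPKM (a level per transcript length and library size) went from 0.98 to 1.04, so the direction of the targeted gene there depended on the scaling. The 10 macrophage markers summed to between 8770 and 18800 TMM-scaled CPM and the 10 classical dendritic cell markers to between 66 and 744, and no matched marker of either list was at 0 in all libraries.

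The ribosomal protein genes ranked differently in the high and the low experiment. The median FPKM of the small subunit genes was 416 and 413 with NT and 461 and 459 with Satb1 siRNA in the high experiment, and 709 and 595 in the low experiment. For the large subunit genes it was 448 and 442, then 489 and 487, and 540 and 463. Small subunit genes thus lay below large subunit genes in all 4 high libraries and above them in both low libraries. Across the 72 genes without the copies, the order by FPKM was nearly the same between repeats (Spearman's rho 0.999), between the siRNAs of the high experiment (0.980 to 0.984) and between those of the low experiment (0.971). Between an experiment and the other it was 0.434 to 0.476. These correlations are across genes, which are not independent replicates, and every library of 1 experiment shares that experiment's preparation.

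The highest levels belonged to different genes in each experiment. Rpl26, of the peptide exit region, had FPKM of 1407 and 1384 with NT and 1491 and 1488 with Satb1 siRNA in the high experiment, and 849 and 758 in the low experiment. Rps3a, of the small subunit, had 1321, 1330, 1471 and 1470, and then 854 and 683. Both were lower in the low libraries than in every high library.

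Rps9, near the mRNA entry channel, had 623, 623, 710 and 695 in the high experiment, and 1280 and 963 in the low one. It led all 72 genes in both low libraries. Rps16, whose tail reaches toward the decoding centre, was the lowest of the 72 in all 4 high libraries with FPKM of 13.98, 13.41, 19.58 and 17.17. In the low experiment Rps16 had 694 and 539, ranks 31 and 37 of 72. Whether its reads were assigned alike in both experiments cannot be seen from these values and was not tested. The 3 copies Rpl10l, Rpl3l and Rpl39l stayed at or under an FPKM of 0.60 in every library, and Rpl10l had 0 counts in both low libraries. FPKM depends on the transcript length used, and the values of Rps15a (FPKM 24.0 to 37.1) imply a length of 4621 bases although its coding sequence is short.

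**Figure D1:**
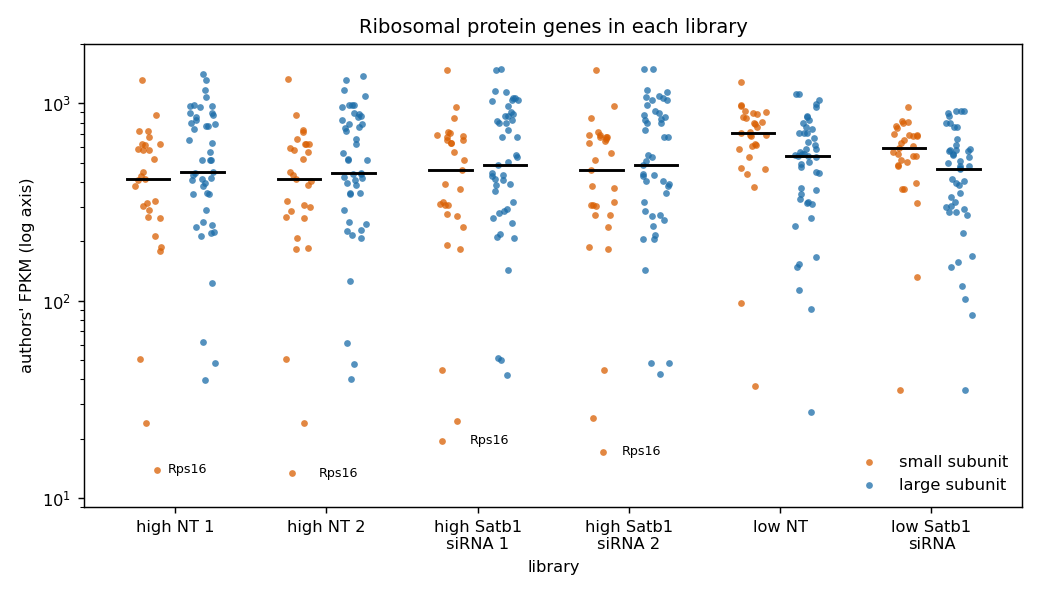
Authors' FPKM (log axis) of the ribosomal protein genes in each of the 6 libraries, small subunit in orange and large subunit in blue, with black bars at the medians; Rpl10l, Rpl3l and Rpl39l lie under 1 and are not drawn. The small subunit median is below the large one in the 4 high libraries and above it in the 2 low libraries, and Rps16 sits apart at 13.4 to 19.6 FPKM in the high libraries.

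The control libraries were compared first, since the experiments' NT libraries received the same siRNA. After TMM scaling, ribosomal protein genes were higher in the low than in the high NT library by a median log2 ratio of 0.84 over the 75 genes kept (mean log2 CPM of 0 or more), against 0.07 over all 13700 genes kept. The median was 1.37 for the 29 small subunit genes and 0.55 for the 46 large subunit genes. A log2 ratio of 0.32 or more, the threshold used for pairs without a test, was found for 59 members (42.9% of all genes) and one of -0.32 or less for 3 (38.6% of all genes). These were 28 of 29 small subunit genes and 31 of 46 large subunit genes on the higher side, and 3 large subunit genes on the lower side. At 2-fold, 32 members were higher (25.7% of all genes), 19 of the small and 13 of the large subunit, and 0 were lower (22.7% of all genes).

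The size of this difference depended on scaling, because TMM factors were 0.708 for the low control and 1.095 and 1.096 for the high controls. With library size alone the median was 0.21 for the members and -0.56 for all genes. On that scale 34 members were higher (26.9% of all genes) and 16 lower (56.8% of all genes). The small subunit median was then 0.74, while that of the large subunit turned to -0.08. Relative to the median of all genes, a reference that moves with the scaling, 28 of 29 small and 36 of 46 large subunit genes were higher. With each control counted as 1 sample there is no test. Marker lists differed between the high and the low controls as well. The classical dendritic cell sum went from 68.0 and 68.8 to 451 CPM (9 of 10 past the threshold on the higher side and 1 on the lower) and the neutrophil sum from 308 and 307 to 1790 (6 of 7 higher and 1 lower). The macrophage sum went from 8770 and 8790 to 18800, of which Lyz2 gave 63.1% to 65.3%, and from 3240 in both to 6520 without it. Of its 10 genes 7 were higher and 2 lower, the latter Mrc1 and Cd163. The tumour, epithelial and mesothelial sum went from 730 and 732 to 185 (9 of 10 lower and 1 higher). Their part in the members' difference was not tested.

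Among the small subunit genes, Rps16 differed most. Its counts were 561 and 566 in the high NT libraries, 589 and 493 with Satb1 siRNA, and 11354 and 7999 in the low libraries, with no overlap between experiments. Its control ratio was 6.32 on the log2 scale (5.69 with library size alone). A different annotation or handling of reads with several matches in the experiments could not be checked, so this ratio may not be one of mRNA level. Rps14, the small subunit gene lost in the human 5q- syndrome, had FPKM of 179, 185, 182 and 187 in the high experiment and 893 and 688 in the low experiment (control log2 ratio 2.94). Rps29, a small zinc-binding protein, had 213, 209, 268 and 271, against 914 and 595 (2.78). All 3 had a higher FPKM in both low libraries than in every high library.

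Other small subunit genes went the same way in smaller steps. Rps19, the gene most often mutated in Diamond-Blackfan anaemia, had FPKM of 380 and 386 in the high NT libraries and 968 in the low NT library (1.82). Rps27a, made as a fusion with ubiquitin, had 416 and 413 against 622 (1.37). Rps4x, encoded on the X chromosome, had 726 and 732 against 907 (0.95).

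At the other end of the subunit, Rps6, the substrate of S6 kinase, had 620 and 624 against 538, and Rpsa, also known as a laminin receptor, had 725 and 719 against 709. Their log2 ratios after TMM scaling were 0.44 and 0.51, so the FPKM was lower in the low control and the TMM-scaled level higher. This held for 7 of 29 small subunit genes, Rps3a among them, and 18 of 46 large subunit genes, Rplp1 and Rpl22 among them, and the reverse for 0. Rps3a had the lowest ratio of the small subunit, 0.02.

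Among the large subunit genes, those at the 2 ends differed in sign. Rpl22l1, the copy of Rpl22, had FPKM of 39.6 and 40.3 in the high NT libraries and 113 in the low NT library (2.16), while Rpl22 itself had 123 and 126 against 90.6 (0.05). Rplp0, the base of the stalk that recruits elongation factors, had 448 and 442 against 708 (1.32). Its partner Rplp2 had 1172 and 1172 against 506 (-0.54), and the other partner Rplp1 963 and 977 against 791 (0.37). Rplp0 was thus higher and Rplp2 lower on either scale, and the direction of Rplp1 depended on the scale.

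Rpl11 and Rpl5 bind 5S ribosomal RNA as a pair and can hold back Mdm2. Rpl11 had 408 and 410 against 820 (1.63), and Rpl5 had 827 and 822 against 310 (-0.77). Rpl36a had the lowest ratio of all members, -0.82, with 870 and 866 against 313. Rpl5, Rpl36a and Rplp2 were lower in the low control under TMM scaling and with library size alone (-1.40, -1.45 and -1.17).

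**Figure D2:**
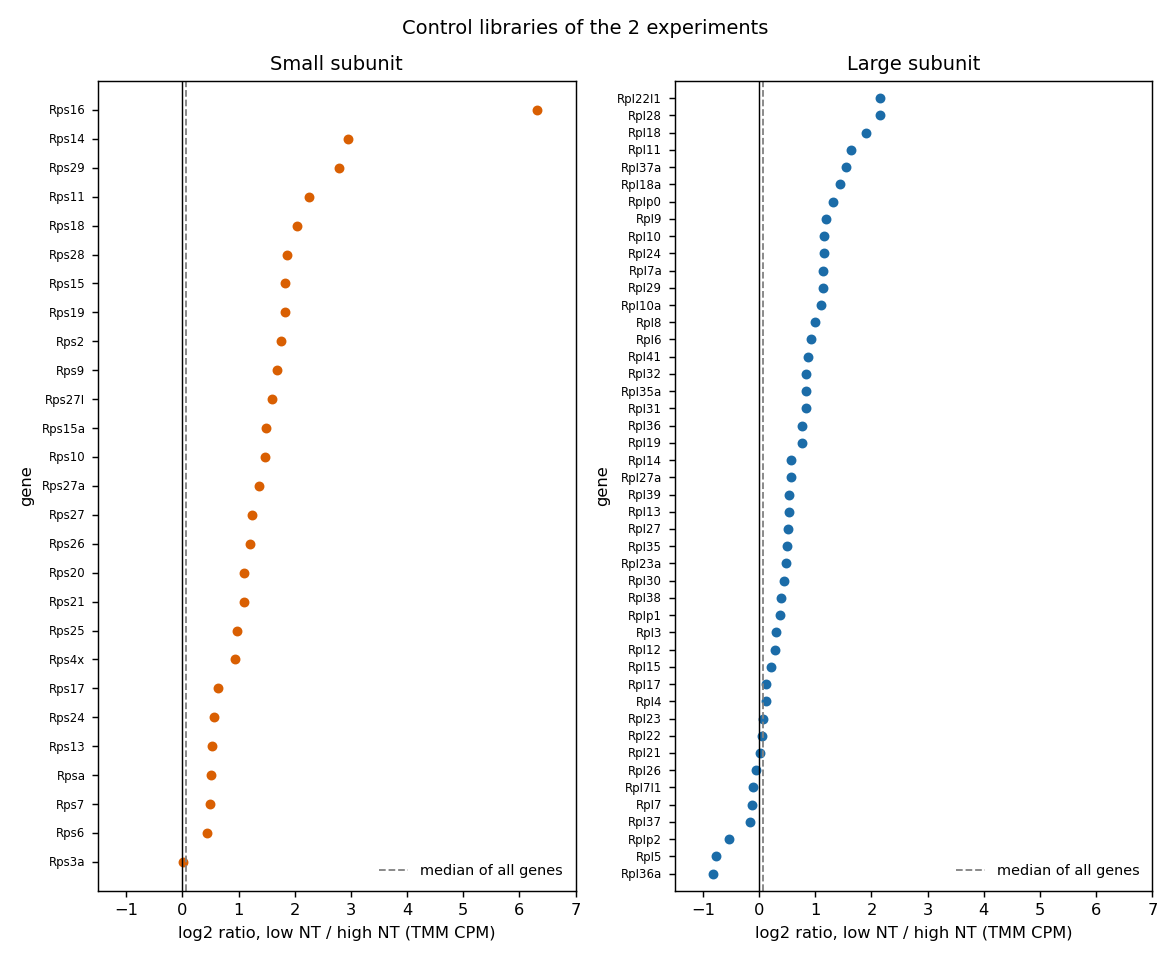
Log2 ratio of the low NT library over the mean of the 2 high NT libraries (TMM-scaled CPM) for 27 small and 46 large subunit genes, with the median of all genes as a dashed line. All small subunit genes drawn lie above 0 and Rps16 reaches 6.32, while 7 large subunit genes lie below 0; with library size alone 6 small and 25 large subunit genes lie below 0.

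The members' share of all counts stayed near 3% throughout. It was 3.02% and 3.01% with NT siRNA (exact 95% binomial intervals 3.011 to 3.019 and 3.005 to 3.013, counting error only) and 3.21% in each high library with Satb1 siRNA. In the low experiment it was 3.24% with NT and 2.80% in the library labelled Satb1 siRNA. The share was thus 1.06 times the control's in the high experiment and 0.865 times in the low experiment. An exact permutation test of 2 against 2 libraries cannot give a p under 0.33, so none is given.

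The ratio of small to large subunit counts separated the experiments. It was 0.466 and 0.468 with NT and 0.472 and 0.472 with Satb1 siRNA in the high experiment, and 0.703 and 0.670 in the low experiment. The low control's ratio was 1.51 times that of the high controls, and the Satb1 siRNA libraries differed from their controls by 1.01 times and 0.952 times. Without Rps16, which gave 3.14% of small subunit counts in the low control and 0.083% to 0.086% in the high controls, the ratios were 0.466, 0.467, 0.471, 0.471, 0.681 and 0.650. Rpl5 gave 8.19% to 9.14% of large subunit counts in the high and 3.35% to 3.46% in the low libraries. A ratio of this kind is free of library scaling.

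**Figure D3:**
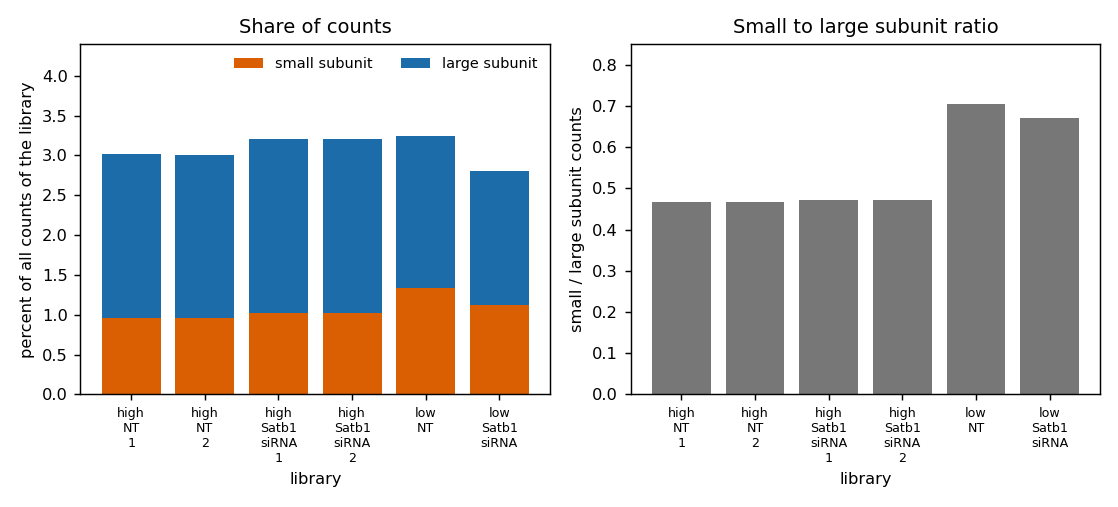
Left, the percent of each library's counts on small (orange) and large (blue) subunit genes; right, the ratio of small to large subunit counts, 1 bar per library and both axes from 0. The summed share stays between 2.80% and 3.24%, while the ratio is 0.466 to 0.472 in the high libraries and 0.670 to 0.703 in the low ones.

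In the high experiment, loss of Satb1 went with small shifts of the ribosomal protein genes in both directions. By edgeR's quasi-likelihood test with Benjamini-Hochberg adjustment over all 20242 genes tested, 42 members were called higher with Satb1 siRNA (32.8% of all genes), 27 were called lower (33.2% of all genes) and 9 were not called. Of the small subunit genes 17 rose and 7 fell, and of the large subunit genes 25 rose and 20 fell. The members' median log2 fold change was 0.03 (0.06 for small and 0.02 for large subunit genes), against 0.01 for all genes. Few shifts were large: 2 members passed a log2 fold change of 0.32 upward (25.3% of all genes) and 5 passed it downward (20.4% of all genes). The copies Rpl39l, Rpl3l and Rpl10l, which have few counts, were among these. The SD of the log2 fold change was 0.23 over members against 0.93 over all genes. All genes include many with few counts, and they were not matched to the members on level. The libraries of the 2 siRNAs did not overlap for 75 of the 78 members, and for 82.2% of all genes tested. In either direction 66.0% of all genes were called.

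These calls rest on the near-identical repeats. With the repeats of each group summed and the experiment as a term over the 4 sums, edgeR called 0 members in either direction. Over all genes it called 0 higher and 6 lower, so nearly no gene of any kind was called. Of the members 0 were higher and 5 lower at an unadjusted edgeR p under 0.05, and their median was -0.27 (-0.01 for all genes). That model averages the high with the low experiment. In the high experiment the macrophage markers' sum went from 8770 and 8790 to 12000 CPM in both Satb1 siRNA libraries, and from 3240 to 3600 without Lyz2 (7 of 10 called higher and 2 lower). The B cell sum went from 25.7 and 25 to 44.2 and 43.4 CPM (7 of 9 tested called higher and 0 lower), and the T cell sum from 43.5 and 41.4 to 54.6 and 54.5 (5 of 10 higher and 0 lower). Their part in the members' shifts was not tested.

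Among small subunit genes the rises were led by Rps16, Rps29 and Rps21. The TMM-scaled levels of Rps16 were 7.56 and 7.25 CPM with NT and 9.98 and 8.81 CPM with Satb1 siRNA, a log2 fold change of 0.35 (SE 0.066, edgeR adjusted p = 4.26e-06). Rps29 rose from 70.5 and 69.4 to 85.05 and 85.93 CPM (0.30, SE 0.023, edgeR adjusted p = 1.51e-18). Rps21 rose from 151 and 151 to 181 and 179 CPM (0.26). The NT and Satb1 siRNA values of these genes did not overlap, but they were picked as large called rises. Over all genes tested 82.2% did not overlap.

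Rps7, a binder of Mdm2, rose from 455 and 454 to 523 and 532 CPM (0.22). Rps4x rose by 0.15, Rps9 by 0.10, Rps3a by 0.09, Rps24 by 0.08, Rps27a by 0.06 and Rps6 by 0.02 on the log2 scale. Rps2, at the mRNA entry channel, had the largest fall of the subunit, from 292 and 294 to 239 and 236 CPM (-0.30, SE 0.012, edgeR adjusted p = 1.25e-35). Rps10, also of the entry region, fell from 124 and 124 to 106 in both libraries (-0.23), the copy Rps27l by 0.22, Rps19 by 0.13 and Rpsa by 0.09. Rps14 (-0.04) and Rps15a (-0.04) were not called, nor was Rps15.

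Among well-counted large subunit genes (mean log2 CPM of 1 or more) the rises were led by Rpl36a, Rpl23 and Rpl22l1. Rpl36a rose from 371 and 370 to 435 and 444 CPM (0.25, SE 0.008, edgeR adjusted p = 1.68e-35). Rpl23, which can bind Mdm2, rose from 809 and 814 to 946 and 952 CPM (0.23). Rpl22l1 rose from 16.5 and 16.6 to 19.6 and 19.0 CPM (0.23). Of the 6 genes listed for the 5S particle and Mdm2 binding, 5 rose and the copy Rps27l fell, where 32.8% of all genes rose and 33.2% fell. Rpl5 rose from 1542 and 1535 to 1739 and 1746 CPM (0.18), and Rpl11 from 218 and 220 to 222 and 225 (0.04). The call for Rpl11 was lost with each of the 4 libraries left out in turn (edgeR adjusted p from 0.050 to 0.22) and by DESeq2 (adjusted p = 0.24).

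Rpl27 had the largest fall among well-counted members. Its levels were 228 and 229 CPM with NT and 179 and 169 CPM with Satb1 siRNA (-0.39, SE 0.016, edgeR adjusted p = 1.81e-30). Rpl18 fell from 150 and 148 to 118 and 112 CPM (-0.36), Rpl29 from 205 and 204 to 164 and 160 CPM (-0.33), Rpl8, near the peptidyl transferase centre, from 337 and 339 to 287 and 284 CPM (-0.24), and Rpl41, a very short basic protein, from 351 and 350 to 297 in both libraries (-0.23). These 5 genes had no overlap between siRNAs, but they were picked as large called falls, and 82.2% of all genes tested had none.

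The stalk genes leaned lower: Rplp1 fell by 0.22, Rplp0 by 0.18 and Rplp2 by 0.07, and Rpl12 at their base rose by 0.05. The call of Rplp2 was lost under upper quartile scaling, where its value was 0.01 (edgeR adjusted p = 0.57), and from FPKM in limma (-0.01, adjusted p = 0.27). Rpl10, needed for the last step of large subunit maturation, fell by 0.04 after TMM scaling but rose by 0.01 with library size alone and by 0.03 under upper quartile scaling. Along the exit tunnel 5 of 8 genes rose, among them Rpl35 (0.14) and Rpl4 (0.06), 2 fell and Rpl39 was not called (all genes as above, 32.8% and 33.2%).

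Rpl3, beside the peptidyl transferase centre, rose from 718 and 711 to 817 and 818 CPM (0.20). Rpl7 rose by 0.11, Rpl32 by 0.06, Rpl26 by 0.03 and Rpl23a by 0.02. By DESeq2 the calls of Rpl26, Rpl23a and Rps6 were lost (adjusted p of 0.059, 0.39 and 0.28). Of the genes mutated in Diamond-Blackfan anaemia, 9 of 15 rose and 6 fell, again beside 32.8% and 33.2% of all genes. The rare copies rested on few counts: Rpl3l had 33 and 35 counts with NT and 8 and 13 with Satb1 siRNA (-1.28, SE 0.34), and Rpl39l had 31 and 30 against 34 and 36 (0.61, SE 0.26, edgeR adjusted p = 0.033 but 0.24 by DESeq2, and 0.053 to 0.15 by edgeR with 1 library left out).

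**Figure D4:**
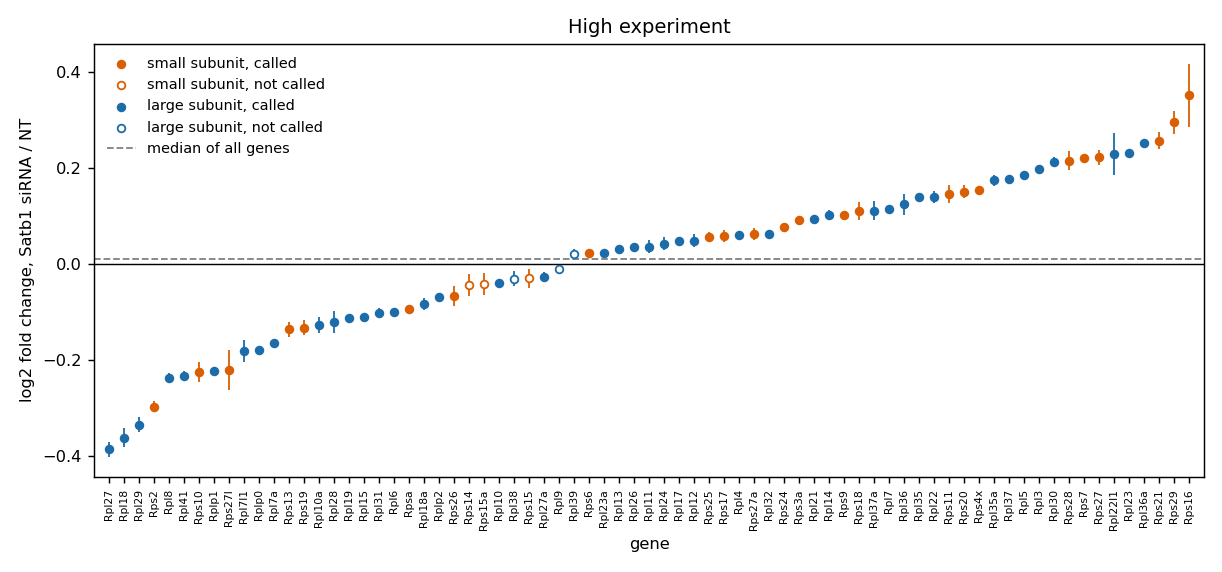
Log2 fold change of Satb1 over NT siRNA in the high experiment with its SE (bars) for 73 members in order of size, filled where edgeR's adjusted p was under 0.05; Rpl10l, Rpl3l and Rpl39l are not drawn. Values run from -0.39 (Rpl27) to 0.35 (Rps16) with both subunits on both sides of 0; Rpl10 and Rplp2 change sign under another scaling.

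In the low experiment the ribosomal protein genes were lower as a group in the library labelled Satb1 siRNA. The median log2 ratio was -0.56 over 75 members (-0.61 for small and -0.54 for large subunit genes), against -0.06 for all 13700 genes. A log2 ratio of -0.32 or less was found for 72 members (27.1% of all genes) and one of 0.32 or more for 0 (23.9% of all genes), while 3 lay between. A ratio under 1 was found for 73 members (55.2% of all genes). The members were also closely spaced, with an SD of 0.18 against 0.76 over all genes, which were not matched to the members on level. There is 1 library per siRNA, so no test can be given, and the exact 95% intervals below cover counting error only.

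The absolute size depended on scaling here too. With library size alone the members' median was -0.20 and that of all genes 0.29, 71 members had a ratio under 1, and 19 lay past the threshold of 0.32 on the lower side (9.22% of all genes) and 2 on the higher side (47.5% of all genes). Scaling shifts all genes of a pair alike, and 73 of the 75 members lay below the median of all genes. In bulk RNA, fewer cells of a type and less RNA per cell cannot be told apart.

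Markers of other cells moved in the same pair. The tumour, epithelial and mesothelial markers summed to 185 CPM with NT and 663 CPM in the library labelled Satb1 siRNA, with 10 of 10 past the same threshold on the higher side (23.9% of all genes). The macrophage sum went from 18800 to 10200, or from 6520 to 4610 without Lyz2 (8 of 10 lower, against 27.1% of all genes), the neutrophil sum from 1790 to 1020 (7 of 7 kept lower) and the dendritic cell sum from 451 to 744 (8 of 10 higher). Their part in the members' lower levels was not tested.

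Rpl36 had the lowest ratio, 144 CPM with NT and 67.4 CPM with Satb1 siRNA after TMM scaling, or 0.466 (interval 0.437 to 0.496). Rps29 went from 481 to 245 CPM (0.508, 0.491 to 0.525) and Rplp2 from 304 to 158 CPM (0.519, 0.498 to 0.541). In the high experiment the same genes went up (Rpl36 0.12, Rps29 0.30) or slightly down (Rplp2 -0.07).

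The stalk gene Rplp1 (0.569) was also among the lowest, and Rplp0 had 0.645. Rps6 went from 1073 to 746 CPM (0.696), Rps19 from 675 to 418 (0.619), Rps14 from 740 to 446 (0.602), Rpsa from 1439 to 940 (0.654) and Rps16 from 594 to 360 (0.606). Of the large subunit, Rpl3 had 0.729, Rpl5 0.714, Rpl11 0.723, Rpl41 0.686 and Rpl10 0.639. All large subunit genes kept ran from 0.466 (Rpl36) to 1.07 (Rpl7l1).

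The 3 members short of the threshold after TMM scaling were Rpl7l1, Rps27l and Rpl7. Rpl7l1, the copy of Rpl7, went from 96.6 to 103 CPM (1.07, 1.00 to 1.13), and Rps27l, the copy of Rps27 that p53 can induce, from 62.0 to 65.3 CPM (1.05, 0.974 to 1.14). Rpl7 itself went from 1007 to 949 CPM (0.943, 0.924 to 0.961), but its log2 ratio turned to 0.27 with library size alone. Of the remaining copies, Rpl22l1 had a ratio of 0.702, inside the members' usual range. Rps27 and Rpl22, the parents of Rps27l and Rpl22l1, had 0.717 and 0.727.

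**Figure D5:**
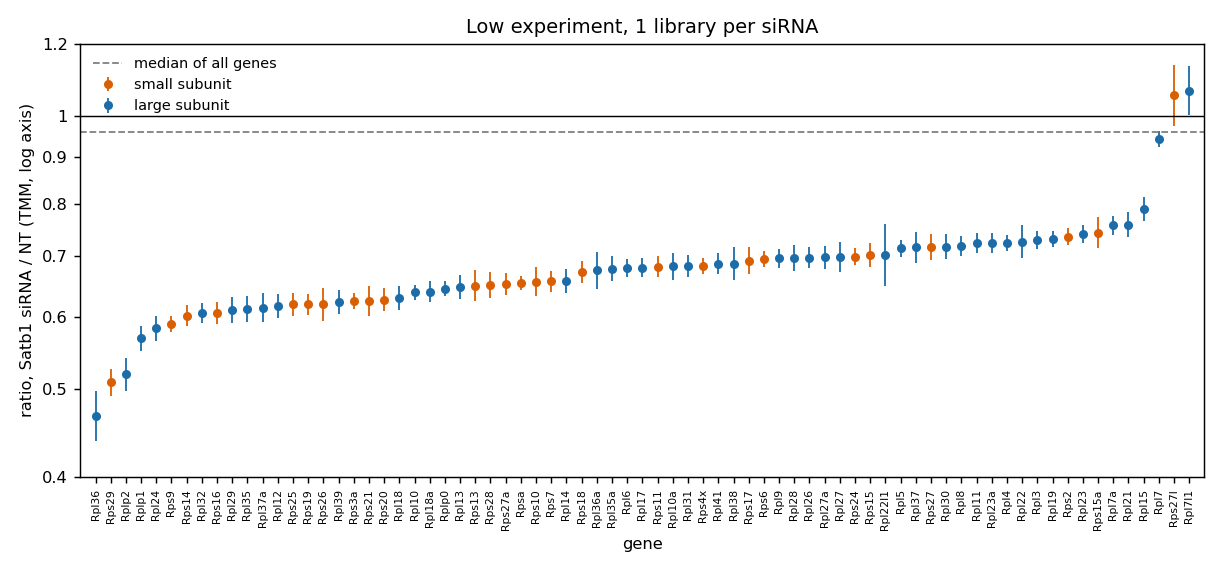
Ratio of Satb1 over NT siRNA in the low experiment (TMM-scaled, log axis) for 73 members with exact 95% counting intervals, 1 library per siRNA, and the median of all genes as a dashed line. All members drawn but Rpl7l1 and Rps27l lie below 1, most between 0.6 and 0.8, and Rpl7 turns above 1 with library size alone.

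The response to Satb1 siRNA differed between the experiments for nearly all members. In edgeR's interaction over 4 group means, with the spread taken from the repeats of the high experiment, 73 of the 77 members tested had a higher change in the high than in the low experiment (17.9% of all genes), 2 a lower one (21.8% of all genes; 39.7% in either direction), and Rpl39l and Rpl3l were not called. The members' median difference was 0.59, against -0.02 for all 20971 genes. The smallest p-values belonged to Rps24 (0.59, SE 0.013), Rps9 (0.86, SE 0.018), Rpl10 (0.60, SE 0.015), Rps4x (0.70, SE 0.014) and Rpl32 (0.78, SE 0.021). Rps27l (-0.30) and Rpl7l1 (-0.28), both copies, were the 2 with a lower change. The members' changes in the 2 experiments had no common order: across 75 members Spearman's rho between the changes was -0.07 (-0.25 for small and 0.10 for large subunit genes), a description across genes. The low libraries' own spread is unknown, and this test assumes that they vary like the high repeats.

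The members' base composition varied with their values. All 78 had a coding GC content from the GENCODE vM21 annotation of another build, with a median of 52.72% for small and 52.69% for large subunit genes. In 4 bins of members by coding GC, from the lowest (39.89% to 49.05%) to the highest (56.20% to 61.59%), the control log2 ratio had medians of 0.57, 0.53, 1.097 and 1.57. Genes of other kinds in the same bins of GC, with a coding length anywhere between the members' extremes (75 to 1257 bases), had medians of -0.11, 0.30, 0.64 and 0.83. Within that range they were not matched to the members on length. Members lay above the other genes in all 4 bins. Spearman's rho of coding GC with the control ratio was 0.36 over 75 members and 0.35 over 12014 genes.

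For the high experiment rho was -0.37 over members and -0.21 over all genes, and the bins' medians went from 0.11 through 0.04 and -0.03 to -0.09. For the low experiment rho was -0.39 over members and 0.00 over all genes. Its bins had medians of -0.52, -0.54, -0.55 and -0.66, against -0.19, -0.16, -0.13 and -0.14 for the other genes. Genes share libraries, so these are descriptions, and the part of base composition in the differences between libraries was not tested.

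Genes outside the rule that belong to the ribosome or serve it were read from the same fits. Of 3 free or fused ribosomal proteins 1 rose and 2 fell in the high experiment, and the riser was Fau, a fusion with a small subunit protein (0.05). Beside this and the following counts, 32.8% of all genes rose and 33.2% fell in the same fit, and of each list the genes named are those with the smallest p. In the low experiment all 3 genes of this list lay past the threshold on the lower side (Fau -0.90 on the log2 scale). Of 8 genes listed with the elongation factors 3 rose and 4 fell in the high experiment, among them Eef1g (-0.44) and Eif5a (-0.59). The median of these 8 genes in the low experiment was -0.25. They include Eef2k, counted among the rises, and Eef1e1, which are not elongation factors themselves. Of 18 other known TOP mRNAs 7 rose and 9 fell, with Vim at -0.34, and the low experiment's median was -0.23, between that of all genes and that of the members. Of 27 initiation factors 7 rose and 15 fell, among them Eif4a1 (-0.46) and Eif4g1 (-0.29).

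Factors that build ribosomes had a median above 0 in the low pair. Of 35 biogenesis factors 5 rose and 22 fell in the high experiment, with Nop2 at -0.57 and Nop56 at -0.31, while their median in the low experiment was 0.09. Of 13 genes of RNA polymerase I, which transcribes ribosomal RNA, 4 rose and 3 fell, with Polr1b at 0.59 and Taf1d at 0.18, and the low median was 0.00.

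Of 20 genes listed with the regulators of TOP mRNAs and mTOR, Myc, Mycn, Max and Mdm2 among them, 6 rose and 12 fell. Eif4ebp1, a repressor of cap-dependent translation, fell by 0.80 and Mdm2 by 0.56, and both were lower in the low pair as well (-0.72 and -0.47). Of 72 mitochondrial ribosomal protein genes 2 rose and 53 fell in the high experiment with a median of -0.21, among them Mrpl54 (-0.65) and Mrpl40 (-0.52), against the cytosolic members' 0.03. Their low median was -0.16 against the cytosolic members' -0.56. Of the 2 pseudogene rows, Rpl34-ps1 rose by 0.14 and was at -0.68 in the low pair, and Rps19-ps3 was not called (0.21).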

How the data were processed

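All 6 libraries were made from total RNA with a TruSeq Stranded Total RNA kit, per the labels' protocols. The authors deposited a single table with FPKM and count columns per library, per the file headers. Its deposited counts were read as estimated counts because RSEM 1.2.12 is named with DESeq2 and the build mm9 in the submitters' processing notes. They were whole numbers, so rounding changed nothing. The authors' FPKM values are relative to transcript length and library size. The aligner, filters and strand setting were not given in the sources used here. Ribosomal protein genes have many processed copies in the genome, and reads that match several of them are divided in estimated counts, so single members are less certain than their sums. No annotation of mm9 was used, and the files' genes have no coordinates here.

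The high experiment was tested with edgeR 4.0.16 (R 4.3.3; quasi-likelihood, robust, TMM, filterByExpr by group, two-sided, adjusted p under 0.05) on the counts of 4 libraries, and the interaction over 4 group means of 6 libraries. The low pair and the controls were compared by log2 ratios of CPM (prior count 2, TMM over 6 libraries) without a test. Limits of 3 counts and intervals take in counting error only, as reads copied by PCR are not separate molecules. DESeq2 1.42.0, limma 3.58.1 on log2(FPKM + 1), other scalings, filters and folds, and leaving out each library were the alternatives. The tests were checked on simulated data. No column lacked a sample. Same-numbered libraries did not deviate together, so no pairing was used.

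The members and gene lists were chosen with earlier results of these data known. The genes named were the 6 largest called rises and falls in the high experiment among members whose mean log2 CPM reached 1 (which leaves out Rpl39l and Rpl3l), the 6 most and 4 least abundant members, the 3 largest rises and falls of the low experiment and of the controls, the 5 smallest interaction p-values, a fixed set of 13 genes, and the 2 genes of lowest p in each list. Rpl22, Rps27, Rpl12 and the genes not called were chosen after their values were seen. Some genes are counted with their group but not reported here singly or drawn in the plots by gene.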

Additional observations from a re-analysis of the deposited data

Results flagged for a closer look

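The siRNA response of the ribosomal protein genes differed between the experiments by edgeR's interaction test, which sets the difference against the spread of near-identical repeats, with 1 library in each low group. It therefore compares these libraries and not mice. The change was higher in the high experiment for 73 members and lower for 2, Rps27l and Rpl7l1. Among the named members the log2 difference of the changes was 0.59 for Rps24, 0.78 for Rpl32, 0.70 for Rps4x, 0.86 for Rps9 and 0.60 for Rpl10. The experiments differ in library, depth and marker levels together, and these cannot be told apart.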

How the results depend on the processing

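In the high experiment, scaling, filter and tool moved the members' median log2 fold change by more than the repeats' spread but kept it small: 0.0869 with library size alone, 0.1069 under upper quartile scaling, 0.0272 without a filter, 0.043 with at least 10 counts in every library, 0.0248 by DESeq2 and 0.0934 from the authors' FPKM in limma. Counts of higher and lower members were 47 and 23 with library size alone (7690 and 5682 of all genes). Upper quartile scaling gave 49 and 21 (8067 and 5325 of all genes). DESeq2 gave 35 and 26 (4675 and 5424), and FPKM 45 and 21 (4691 and 4414). Library size alone and upper quartile scaling also moved the median of all genes, to 0.0648 and 0.0847. The small minus large subunit difference was 0.0282 with at least 10 counts in every library and 0.054 without members that have a copy. Leaving out 1 library at a time gave medians of 0.0231 to 0.0352, subunit differences of 0.0236 to 0.044 and control medians of 0.8395 to 0.8474. The fit with a replicate block called 43 members higher and 28 lower (6584 and 6664 of all genes). Since the numbers did not pair the samples (r = -0.0377 between same-numbered deviations over 14494 genes), this fit is given only here.

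With the repeats summed and the experiment as a term, 0 members were called higher and 0 lower (0 and 6 of all genes). The members' median was -0.2748 and the subunit difference 0.0228. Genes that rose then had negative values: Rps16 -0.1921, Rps29 -0.3387, Rps21 -0.207, Rpl36a -0.1529, Rpl23 -0.0997, Rpl22l1 -0.1364, Rpl26 -0.2402, Rps3a -0.2911, Rpl32 -0.3277, Rpl23a -0.2199, Rpl39l -0.0887, Rpl36 -0.4815, Rps24 -0.218, Rps9 -0.3279, Rps4x -0.1957, Rpl5 -0.1486, Rps6 -0.2486, Rps27a -0.2748, Rpl3 -0.1268, Rpl11 -0.214, Fau -0.4215, Rpl34-ps1 -0.2656, Rps7 -0.1905, Rpl35 -0.2819 and Rpl4 -0.2011. This model averages both experiments by construction. Rpl10 rose by 0.0147 with library size alone and by 0.0347 under upper quartile scaling. Its value was 0.0196 from FPKM and that of Rplp2 was 0.0051 under upper quartile scaling, neither of them called (adjusted p of 0.061 in limma and 0.57 in edgeR). The log2 ratio of Rpl7 in the low pair was 0.27 with library size alone and 0.271 from FPKM.

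The interaction called 7 members lower with library size alone (8337 of all genes) and 0 by DESeq2 (1323 of all genes). In the low pair the median was -0.2008 with library size alone, -0.617 with DESeq2's size factors and -0.201 from FPKM. Library size alone left 2 members higher and 19 lower there (47.5% and 9.22% of all genes), and FPKM 2 and 18 (38.4% and 7.01%). A fold of 1.5 left 33 lower (12.2% of all genes) and a fold of 2 left 1 lower (3.93%). Between the controls the median was 0.2053 with library size alone, 0.8689 with DESeq2's size factors and 0.1801 from FPKM. Counts of higher and lower members were 34 and 16 with library size alone (26.9% and 56.8% of all genes). From FPKM they were 33 and 16 (26.6% and 53.7%), and at a fold of 2 they were 32 and 0 (25.7% and 22.7%). Without a filter 5 were lower (47.2% of all genes).

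From FPKM the members' share changed by 1.098, 0.9015 and 1.045 times (high pair, low pair, low over high control) and the subunit ratio by 1.03, 0.9586 and 1.651. Without the 20 largest other genes the share changed by 1.079, 0.8455 and 1.027. Without Rpl5, the member with most counts, the share changed by 1.057, 0.8642 and 1.117, and the ratio by 1.021 and 1.431 (high pair, controls). Without members that have a copy the share changed by 1.056, 0.8559 and 1.103 and the ratio by 1.024, 0.9649 and 1.435. Among the gene lists, library size alone called 9 biogenesis factors and 4 mitochondrial genes higher (7690 of all genes). DESeq2 called 4 initiation factors, 3 biogenesis factors and 1 mitochondrial gene higher (4675 of all genes).

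Each condition was counted as 1 sample, since its repeats were near-identical or absent, and no spread between mice is known. Members with few counts (Rpl10l, Rpl3l, Rpl39l) are limited by depth.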
